A study of Mus musculus with 19 samples.

Results

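Mcm8-knockout mouse hearts were compared with wild-type hearts under PBS, the saline control arm of a study of vascular health in a mouse model of Kawasaki disease. The comparison rested on 8 of the 19 heart libraries of the study, taken by genotype and treatment in the labels: 5 from wild-type and 3 from Mcm8-/- mice, all given PBS and none given LCWE, the Lactobacillus casei cell wall extract that brings on vasculitis in this model. The other 11 libraries came from LCWE-treated hearts, 6 wild type and 5 Mcm8-/-, and were used to share the estimate of spread and for 1 comparison at the end. Of 25239 genes in the count table, 14301 had enough counts to be tested. The labels used here give no age, sex, strain, deleted exon, cell type restriction, dose or time. They also leave it unsaid whether the samples were separate animals, so the p-values here speak only for the spread among these libraries, some of which may be technical.

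Mcm8 encodes a helicase of the minichromosome maintenance family that works with its partner Mcm9 in homologous recombination and in the repair of broken or stalled replication forks, and that is not part of the replicative helicase of the same family. The adult heart is built mainly of cardiomyocytes that rarely divide, fed by a dense bed of capillaries and interspersed with fibroblasts and resident macrophages. Its RNA follows feeding, stress hormones and the circadian clock, in which the repressors of the Per and Cry families shut off their own activators Clock and Arntl over each day.

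Mcm8 was measured first, as the check of the genotype labels. Levels are in CPM (read counts per gene relative to library size) and are given in the order of libraries 1 to 5 for wild type and 1 to 3 for the knockout. The numbers only name libraries. Mcm8 stood at 2.84, 3.43, 3.42, 4.54 and 4.08 CPM in wild type and at 0.910, 0.617 and 0.753 CPM in the knockout. Every knockout library lay below every wild-type library, although none of the 3 reached 0. The difference of knockout minus wild type on the log2 scale, with a standard error derived from the test statistic, was -2.26 ± 0.39 (edgeR adjusted p = 0.0316). An exact two-sided permutation test over 56 arrangements of the genotype labels gave p = 0.0179, the smallest this design allows. By edgeR the adjusted p was 0.166 without knockout library 1, and it also missed the threshold without knockout library 3, without any 1 of the wild-type PBS libraries and without wild-type LCWE library 5. The start of Mcm8 (chromosome 2, 132816141 to 132844197, GRCm38) lies head to head with that of Trmt6, a transfer RNA methyltransferase subunit (chromosome 2, 132804207 to 132816055). The 85 bases between them, chr2:132816056-132816140 on the plus strand (RefSeq, GRCm38.p6), are shown because they separate a gene that fell from one that did not pass the test.

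Trmt6-Mcm8 interval: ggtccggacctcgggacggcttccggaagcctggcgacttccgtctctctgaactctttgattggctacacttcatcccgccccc

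Trmt6 lay at 8.27, 8.28, 8.29, 10.2 and 7.79 CPM in wild type and 12.04, 8.57 and 9.72 CPM in the knockout, with overlapping groups and a difference of 0.24 ± 0.16 (adjusted p = 0.411). Mcm9 lay at 5.68, 5.73, 5.85, 4.94 and 6.46 CPM in wild type and 5.601, 4.53 and 4.29 CPM in the knockout, again with overlap (-0.25 ± 0.18, adjusted p = 0.436). Mcm8 itself was not in the list of helicase and recombination genes. Of the 33 tested members of this list, 0 passed the test, 7 lay above 0 and the median difference was -0.15. Mcm3, a subunit of the replicative helicase, was at 8.27, 8.85, 10.5, 9.68 and 11.6 CPM in wild type and 7.91, 7.89 and 6.93 CPM in the knockout. Its groups did not overlap, but its difference of -0.37 ± 0.19 did not pass (adjusted p = 0.288). The recombination gene Xrcc3 and the helicase gene Blm differed by 0.60 ± 0.19 and -0.80 ± 0.35 (adjusted p = 0.103 and 0.205). Of the targets of p53 and the damage response, 0 of 26 passed and 18 lay above 0, with a median of 0.22. The p53 target Cdkn1a, a cell cycle inhibitor, ranged from 82.1 to 168 CPM in wild type and from 106.9 to 304 CPM in the knockout (0.66 ± 0.39, adjusted p = 0.356).

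The 3 knockout libraries were unlike each other, and this touches every result below. Total counts of the 8 libraries ran from 11853233 to 15727823. Counting tested genes more than 2-fold from the wild-type mean gave 2602 in knockout library 1, 513 in library 2 and 1204 in library 3, against 491 to 654 for each wild-type library set against the other wild-type ones. Knockout library 1 held 151.5 CPM of 4 Y-linked genes and 0.350 CPM of Xist, whereas the other 7 libraries held 0.301 to 0.960 CPM and 195 to 250.1 CPM. Knockout library 2 held 91.3 CPM of the atrial markers Sln, Myl7, Myl4 and Bmp10, against 1.66 to 4.17 CPM in the other 7. Cardiomyocyte markers (Myh6, Tnnt2, Actc1 and Tnni3) were high in all 8, at 61018 to 86231 CPM, in keeping with the tissue named in the labels. Liver markers ranged from 1.503 to 299.8 CPM in wild type and stood at 2.59, 111.6 and 348 CPM in the knockout. Skeletal muscle markers ranged from 4.08 to 205.7 CPM and stood at 157, 155 and 6.93 CPM. The part of these differences in the gene results was not tested beyond the alternatives named below.

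At an adjusted p under 0.05, 86 genes passed, which is 0.601% of those tested. Of these, 75 were higher in the knockout (0.524% of tested genes) and 11 lower (0.0769%). The higher genes included clock, heat shock, vascular and lipid genes and had a median difference of 0.99, from 0.54 to 4.99. The lower genes had a median of -0.91, from -0.64 to -2.26. At an unadjusted p under 0.05 there were 2817 genes (19.7%), and the groups did not overlap at 1104 genes (7.72%), with the knockout higher at 587 (4.1%) and lower at 517 (3.62%). Among the genes that passed, the groups did not overlap at 50 of 75 higher and 11 of 11 lower ones. Over all tested genes the median difference was 0.00, with 7174 of 14301 above 0.

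The rise was steepest in knockout library 1 and shallowest in library 2. At the 75 higher genes the median difference from the wild-type mean was 1.32 in library 1, 0.32 in library 2 and 0.98 in library 3. Library 2 was the nearest to wild type at 67 of them and library 1 the farthest at 57. At the 11 lower genes the medians were -1.30, -0.68 and -0.99. The call of 86 genes rested on each of several libraries. Leaving out knockout library 1 left 0 genes, leaving out library 3 left 0, and leaving out library 2 gave 2606 genes (1502 higher and 1104 lower), among them all 86. It fell to 0 without wild-type library 1, 2 or 3, to 1 without library 4 and to 5 without library 5, and with the Y-linked level as a covariate it was 0. With the PBS libraries alone, edgeR called 1 gene, which was not among the 86. Leaving out single LCWE libraries, which enter through the shared spread, gave at least 27 genes, except 0 without wild-type LCWE library 5. The labels carry a sample number whose meaning is not given. Within the range from 100 to under 200, knockout library 1 against wild-type libraries 1 to 4 had medians of 1.34 at the higher and -1.30 at the lower genes. At 200 and above, knockout library 3 against wild-type library 5 had medians of 0.86 and -0.80. All 75 and all 11 kept their sign in both ranges, but these libraries entered the choice of the genes, which largely fixes the sign. Knockout library 2 had no wild-type PBS library in its range.

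**Figure D1:**
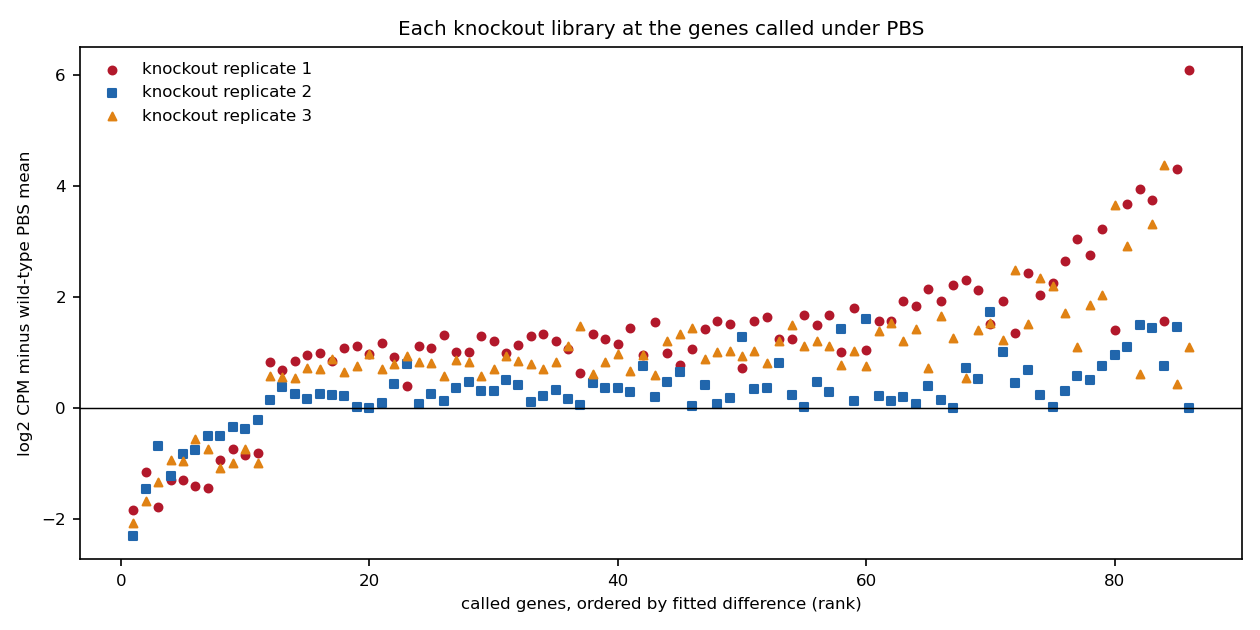
Difference of each knockout PBS library from the wild-type PBS mean (y axis, log2 CPM) at the 86 genes that passed the test, ordered along the x axis by fitted difference, with 1 symbol per library. Library 2 (squares) lies nearest 0 at 67 of the 75 higher genes, and library 1 (circles) lies farthest at 57.

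Clock genes had the highest median of the lists with at least 10 tested members, 1.04 over 21 members, with 18 above 0. The members that passed were 2, both higher, and Per2 was one of them. Per2, a core clock repressor, stood at 6.26, 8.10, 8.97, 11.2 and 15.6 CPM in wild type and 129.8, 26.0 and 95.7 CPM in the knockout. All 3 knockout libraries lay above all wild-type libraries, with library 2 nearest them. Per2 rose by 3.06 ± 0.64 (adjusted p = 0.0468).

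Several other clock genes lay in the same direction without passing. Cry2, a partner of Per2 in repression, was at 29.3, 38.1, 39.6, 29.3 and 33.03 CPM in wild type and 135, 49.9 and 58.2 CPM in the knockout, without overlap (1.26 ± 0.30, adjusted p = 0.0567). Cry1 differed by 0.91 ± 0.22 (adjusted p = 0.0580) and Per3 by 1.86 ± 0.58 (adjusted p = 0.103), both without overlap. The clock output factor Tef was at 66.8, 91.8, 92.3, 69.5 and 94.8 CPM and 422, 129 and 196 CPM, without overlap (1.59 ± 0.43, adjusted p = 0.0752). Bhlhe41, a repressor of clock targets, was at 11.02, 13.6, 15.4, 12.01 and 14.99 CPM and 59.9, 13.4 and 58.001 CPM (1.70 ± 0.41, adjusted p = 0.0561). For Bhlhe41, libraries 1 and 3 lay far above wild type while library 2 lay inside its range. On the activator side, Npas2 was at 16.8, 19.6, 19.4, 13.7 and 14.3 CPM in wild type and 6.02, 11.9 and 7.16 CPM in the knockout, lower in all 3 libraries without overlap (-1.002 ± 0.34, adjusted p = 0.123). Arntl, the main activator, was at 43.3, 39.0, 41.05, 35.8 and 29.5 CPM and 22.5, 37.5 and 15.2 CPM, with overlap in library 2 alone (-0.59 ± 0.45, adjusted p = 0.474). Nr1d1 and Dbp, strongly cycling targets of the activators, differed by 0.02 ± 0.52 and 1.06 ± 0.93, with adjusted p of 0.986 and 0.551. Library medians over the 21 clock genes were 1.40, 0.12 and 0.67. The hour of collection is not given in the labels, so its part was not tested.

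Ciart, a repressor that binds the Clock and Arntl pair, is shown for the E-boxes before its start. Its level was 1.84, 2.43, 2.58, 2.27 and 2.52 CPM in wild type and 44.3, 2.54 and 5.27 CPM in the knockout, far higher in library 1, above the wild-type range in library 3 and inside it in library 2 (2.89 ± 1.05, adjusted p = 0.153). The 250 bases searched before its RefSeq start are printed without those that GENCODE places inside the gene, which leaves 227 (chr3:95882252-95882478, minus strand, GRCm38.p6). They hold 3 copies of the E-box CACGTG, a palindrome searched on both strands and printed in capitals.

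Ciart upstream: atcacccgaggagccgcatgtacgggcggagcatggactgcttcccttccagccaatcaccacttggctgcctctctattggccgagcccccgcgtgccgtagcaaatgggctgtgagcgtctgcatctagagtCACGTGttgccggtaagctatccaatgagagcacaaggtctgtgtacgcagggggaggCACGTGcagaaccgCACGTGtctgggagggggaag

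Among the clock genes, 17 had a promoter in the RefSeq table, and 5 of them (Bhlhe41, Ciart, Cry1, Per1 and Tef) held this E-box in the 250 bases before at least 1 of their RefSeq starts, against 6.86% of all 27025 genes in the table, counted the same way. Per2 is named only. A match is a description of the letters and not a site of binding. Of 20 genes known to answer glucocorticoids, which also act on Per1, 0 passed and 17 lay above 0, with a median of 0.60 and library medians of 1.28, 0.11 and 0.27. Fkbp5, a chaperone induced by glucocorticoids, was at 19.2, 25.8, 17.3, 55.1 and 75.1 CPM in wild type and 266.98, 44.6 and 55.4 CPM in the knockout. Library 1 was far above wild type, while libraries 2 and 3 were inside its range (1.67 ± 0.73, adjusted p = 0.221).

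**Figure D2:**
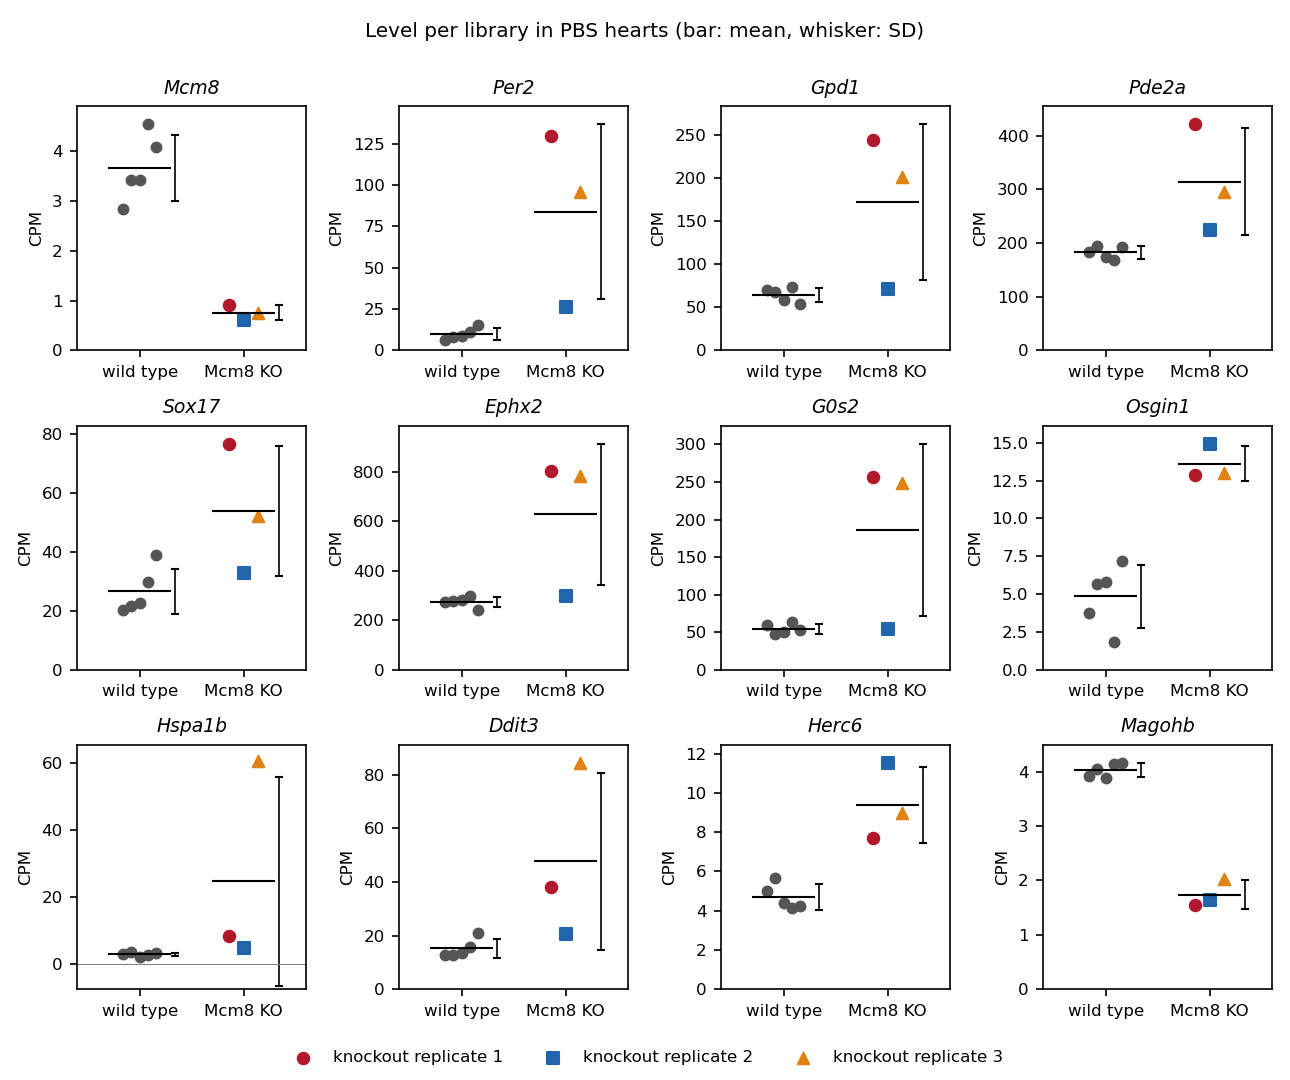
Level in CPM (y axis) of 12 genes in each PBS library, wild type (grey circles, n = 5) and Mcm8 knockout (coloured symbols by library, n = 3), with the mean as a bar and the SD as a whisker. Mcm8 and Magohb lie below wild type in all 3 knockout libraries, and at the other 10 genes knockout library 2 (square) lies nearest wild type except at Osgin1 and Herc6.

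Of 33 endothelial genes, 1 passed, 24 lay above 0 and the median was 0.21. The member that passed was Sox17, a transcription factor of arterial endothelium, at 20.4, 21.6, 22.6, 29.7 and 38.9 CPM in wild type and 76.9, 32.8 and 52.4 CPM in the knockout. Libraries 1 and 3 lay above wild type and library 2 inside its range, and Sox17 rose by 1.02 ± 0.22 (adjusted p = 0.0464). In bulk tissue, more cells of a type and more RNA per cell cannot be told apart. The defining endothelial markers Pecam1, Cdh5, Kdr and Tie1 summed to 1402, 1368 and 1232 CPM in the knockout, within the wild-type range of 1062 to 1433 CPM. Outside the list, Adgrf5, an adhesion receptor of endothelium named after its values were seen, stood at 365, 358, 350.4, 345 and 399 CPM and 1124, 463 and 634 CPM. It lay above wild type in all 3 libraries (1.03 ± 0.21, adjusted p = 0.0352). Fgd5, an exchange factor for Cdc42 found mainly in endothelium, rose by 0.82 ± 0.16 (adjusted p = 0.0333), from 77.5 to 96.1 CPM to 108.1 to 179.7 CPM without overlap. Without knockout library 1 the differences were 0.67 for Sox17 and 0.59 for Adgrf5.

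Pde2a, the phosphodiesterase that breaks down cyclic AMP when cyclic GMP is bound, stood at 183, 194, 174, 168 and 192 CPM in wild type and 421, 225 and 295 CPM in the knockout. The groups did not overlap and Pde2a rose by 0.78 ± 0.14 (adjusted p = 0.0316), or by 0.51 without library 1. It was the only one of 21 nitric oxide and cyclic GMP genes to pass, with 12 above 0 and a median of 0.11. The endothelial nitric oxide synthase gene Nos3 was at 106, 111, 107.6, 85.1 and 104 CPM and 141, 113 and 118 CPM, without overlap but not passing (0.27 ± 0.17, adjusted p = 0.360). The soluble guanylate cyclase subunit genes Gucy1a1 and Gucy1b1 differed by 0.43 ± 0.18 and 0.43 ± 0.16, with adjusted p of 0.200 and 0.153. The inducible synthase gene Nos2 was at 29.6, 28.7, 24.2, 19.95 and 24.9 CPM in wild type and 10.01, 25.1 and 10.5 CPM in the knockout. Libraries 1 and 3 lay below wild type and library 2 inside its range (-0.74 ± 0.28, adjusted p = 0.158).

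The next genes belonged to no list and were picked from those that passed. Ephx2, the soluble epoxide hydrolase that inactivates vasodilator epoxides of arachidonic acid, stood at 272, 277, 283, 297 and 239.8 CPM in wild type and 802, 299 and 784 CPM in the knockout. Library 2 lay just above the highest wild-type library, and Ephx2 rose by 1.20 ± 0.24 (adjusted p = 0.0352). Ptgs1, the constitutive cyclooxygenase, stood at 10.4, 11.3, 10.1, 12.1 and 11.4 CPM and 49.2, 14.5 and 18.2 CPM. It lay above wild type in all 3 libraries, mostly in library 1, and rose by 1.30 ± 0.25 (adjusted p = 0.0316), or by 0.56 without that library. Adm, the vasodilator peptide adrenomedullin, stood at 8.35, 9.03, 8.67, 6.94 and 6.31 CPM and 28.01, 8.16 and 21.1 CPM, with library 2 inside the wild-type range (1.28 ± 0.26, adjusted p = 0.0379). Cyp4b1, a cytochrome P450, stood at 35.8, 37.9, 37.02, 48.6 and 48.8 CPM and 82.1, 56.7 and 94.6 CPM. No library overlapped, and it rose by 0.90 ± 0.16 (adjusted p = 0.0316). The drug efflux pump gene Abcb1a rose by 0.85 ± 0.17 (0.53 without library 1), the organic anion carrier gene Slco2b1 by 0.77 ± 0.16 and the adhesion molecule gene Ceacam1 by 0.88 ± 0.20, all without overlap. Kitl, the ligand of the Kit receptor, rose by 0.75 ± 0.16. Formin genes Inf2 and Fhod1, which nucleate or bundle actin, rose by 0.95 ± 0.18 and 0.67 ± 0.13. The Dock family exchange factor genes Dock6 and Dock9 rose by 0.78 ± 0.17 (0.43 without library 1) and 0.56 ± 0.12. Of these 8 genes, each had an adjusted p from 0.0316 to 0.0473.

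Of 19 smooth muscle and pericyte genes, 0 passed, 7 lay above 0 and the median was -0.15. The smooth muscle markers Myh11, Acta2 and Tagln summed to 202.9, 201.9 and 214 CPM in the knockout, below the wild-type range of 264 to 573 CPM. Acta2, smooth muscle actin, stood at 377, 351, 451, 178 and 220.5 CPM in wild type and 98.9, 111 and 109 CPM in the knockout, without overlap (-1.57 ± 0.60, adjusted p = 0.166). The pericyte markers Rgs5, Kcnj8 and Abcc9 summed to 1301, 1022 and 1224 CPM against 975 to 1058 CPM in wild type, above it in libraries 1 and 3. Rgs5, a regulator of G protein signalling, lay at 0.38 ± 0.13 and Des, the filament protein desmin, at 0.46 ± 0.18 (adjusted p = 0.129 and 0.158). Of 36 fibroblast and matrix genes, 0 passed, 8 lay above 0 and the median was -0.50, with library medians of -0.74, -0.09 and -0.63. The fibrillar collagen gene Col3a1 was at 469, 524, 539, 297 and 213 CPM and 43.7, 318 and 79.6 CPM, below wild type in libraries 1 and 3 and inside its range in library 2 (-1.47 ± 0.66, adjusted p = 0.228). Col6a2, a subunit of collagen VI, was at 224, 226, 221, 169 and 168 CPM and 40.5, 162 and 77.2 CPM, without overlap (-1.11 ± 0.41, adjusted p = 0.150). Within the same list, Dcn, a proteoglycan of fibroblasts, lay at 0.49 ± 0.16 and Timp3, an inhibitor of matrix proteases, at 1.10 ± 0.29, with adjusted p of 0.108 and 0.0689. The fibroblast markers Col1a1, Pdgfra, Dcn and Tcf21 summed to 813, 631 and 688 CPM against 536 to 706.7 CPM in wild type.

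Of the metabolic genes described here, G0s2, Gpd1, Acly, Lpcat3 and Abcg1 belonged to no list and were picked from those that passed. G0s2, an inhibitor of the triglyceride lipase Pnpla2, stood at 60.2, 47.2, 49.9, 63.4 and 52.3 CPM in wild type and 257, 54.4 and 248 CPM in the knockout. Libraries 1 and 3 were far above wild type and library 2 was inside its range. G0s2 rose by 1.77 ± 0.36 (adjusted p = 0.0397). Pnpla2 itself was at 512, 701, 624, 520.1 and 551 CPM and 1967, 617 and 1175 CPM, with the same library pattern (1.11 ± 0.28, adjusted p = 0.0617). Gpd1, which links glycolysis to glycerol phosphate, stood at 70.4, 67.4, 58.1, 73.3 and 54.1 CPM and 244, 70.8 and 201 CPM. Here too library 2 overlapped wild type, and Gpd1 rose by 1.41 ± 0.26 (adjusted p = 0.0316). Pfkfb3, which makes the sugar bisphosphate that activates glycolysis, stood at 9.27, 11.8, 13.1, 15.5 and 13.2 CPM and 103, 18.4 and 26.7 CPM. All 3 libraries lay above wild type, and it rose by 1.98 ± 0.41 (adjusted p = 0.0468), or by 0.84 without library 1. It was the only one of 24 glycolysis genes to pass, with 14 above 0 and a median of 0.02. The lipid genes Acly (citrate lyase), Lpcat3 (a phospholipid acyltransferase) and Abcg1 (a cholesterol exporter) rose by 0.72 ± 0.16, 0.83 ± 0.17 and 1.43 ± 0.29, with adjusted p from 0.0352 to 0.0468. Without library 1, Acly differed by 0.42 and Abcg1 by 0.63.

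Fatty acid oxidation genes lay together above wild type, but 0 of 34 passed. Of them 31 lay above 0, the median was 0.49, and library medians were 0.55, 0.13 and 0.59. Slc25a20, the carnitine carrier of the mitochondrial inner membrane, was at 188, 167, 174, 191 and 148 CPM and 269, 205.4 and 307 CPM, without overlap (0.58 ± 0.15, adjusted p = 0.0617). Fabp3, the fatty acid binding protein of heart, was at 3600.4, 3178, 3428, 4338 and 3753 CPM and 6890.4, 4440.1 and 6978 CPM, also without overlap (0.74 ± 0.22, adjusted p = 0.0842). The dehydrogenase genes Acadl and Acadvl differed by 0.70 ± 0.19 and 0.48 ± 0.14, with adjusted p of 0.0748 and 0.0862. Pdk4 and Angptl4, genes induced by fasting, were at 256, 2688 and 1335 CPM and 39.2, 96.5 and 51.5 CPM in the 3 knockout libraries. Both overlapped wild type, at 1261 to 2469 CPM and 30.9 to 92.5 CPM, with differences of -0.33 ± 0.98 and 0.03 ± 0.96 (adjusted p = 0.883 and 0.988). Feeding is not described in the labels, and its part was not tested.

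Other mitochondrial genes differed less. Of 70 nuclear oxidative phosphorylation genes, 0 passed, 8 lay above 0 and the median was -0.10, with library medians of -0.02, -0.01 and -0.25. Of 20 genes for mitochondrial biogenesis and mitochondrial DNA upkeep, 0 passed and the median was 0.03, and of 13 fusion and fission genes 0 passed and the median was -0.01. Of 33 mitophagy and autophagy genes, 0 passed, 25 lay above 0 and the median was 0.20. Bnip3, a receptor for mitophagy, was at 94.8, 116, 115, 118 and 133.99 CPM in wild type and 489, 126 and 199 CPM in the knockout, with library 2 inside the wild-type range (1.23 ± 0.30, adjusted p = 0.0561). Pink1, a kinase that marks damaged mitochondria, ranged from 739 to 1218 CPM in wild type and from 987 to 1180.4 CPM in the knockout (0.20 ± 0.18, adjusted p = 0.557).

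Stress genes passed in 2 lists. Of 26 heat shock chaperone genes, 2 passed, both higher, 16 lay above 0 and the median was 0.23. The members that passed were Hspa1a and Hspa1b, neighbouring copies of the inducible Hsp70 gene. Hspa1b (chromosome 17, 34956436 to 34959238) stood at 2.92, 3.43, 1.98, 2.67 and 3.12 CPM in wild type and 8.47, 4.80 and 60.6 CPM in the knockout. Hspa1a (chromosome 17, 34969190 to 34972156) stood at 2.92, 2.68, 3.04, 2.67 and 3.93 CPM and 8.19, 5.97 and 39.6 CPM. At both, every knockout library lay above wild type and library 3 lay far above the other libraries. Hspa1b rose by 3.12 ± 0.58 (adjusted p = 0.0316) and Hspa1a by 2.55 ± 0.50 (adjusted p = 0.0342), and without library 3 the differences were 1.23 and 1.21. The coding parts of the copies are nearly identical, so reads may have been split between them and neither value stands alone. Their upstream sequences show how alike the copies are. In the 250 bases before the start of each (Hspa1a chr17:34972157-34972406, Hspa1b chr17:34959239-34959488, minus strand, RefSeq on GRCm38.p6), 247 positions were identical, and each held 1 match to a heat shock element, searched as GAANNTTC or TTCNNGAA on both strands and printed in capitals.

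Hspa1a: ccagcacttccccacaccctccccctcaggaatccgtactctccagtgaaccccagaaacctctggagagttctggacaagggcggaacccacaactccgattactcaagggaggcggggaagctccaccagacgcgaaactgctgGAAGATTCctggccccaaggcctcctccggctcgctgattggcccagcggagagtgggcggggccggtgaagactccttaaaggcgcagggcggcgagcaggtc
Hspa1b: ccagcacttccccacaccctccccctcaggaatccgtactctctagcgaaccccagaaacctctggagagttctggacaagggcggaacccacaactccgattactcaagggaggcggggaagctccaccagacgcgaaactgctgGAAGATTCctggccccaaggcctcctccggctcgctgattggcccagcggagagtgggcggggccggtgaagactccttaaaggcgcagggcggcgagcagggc

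A match before at least 1 start was present in 14.5% of all 27025 genes in the table, and in 12 of the 20 chaperone genes found there. Dnajb1 and Bag3, a cochaperone and a nucleotide exchange factor of Hsp70, were at 45.1, 22.01 and 37.7 CPM and 666, 271 and 411 CPM in the 3 knockout libraries. Their wild-type ranges were 18.2 to 24.2 CPM and 233 to 271 CPM, with library 2 inside each, and their differences of 0.72 ± 0.20 and 0.81 ± 0.24 did not pass (adjusted p = 0.0748 and 0.0858).

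Of 31 genes of the unfolded protein and integrated stress responses, 2 passed, both higher, 25 lay above 0 and the median was 0.48. Ddit3, the factor CHOP that is made when these responses persist, stood at 12.9, 12.96, 13.5, 15.8 and 21.01 CPM in wild type and 38.2, 20.5 and 84.4 CPM in the knockout. Library 3 was the highest, library 1 was above wild type and library 2 was inside its range. Ddit3 rose by 1.65 ± 0.33 (adjusted p = 0.0352), or by 0.94 without library 3. Dnajc3, a cochaperone of the endoplasmic reticulum, stood at 47.7, 54.4, 58.3, 56.2 and 56.3 CPM and 83.6, 56.4 and 151 CPM. It too was highest in library 3 and inside the wild-type range in library 2, and it rose by 0.83 ± 0.19 (adjusted p = 0.0473), or by 0.36 without that library. Hspa5, the main chaperone of the endoplasmic reticulum, was at 515, 499, 445, 699.9 and 691 CPM and 848, 469.9 and 1818 CPM (0.88 ± 0.34, adjusted p = 0.170). Library medians over the list were 0.12, -0.004 and 0.86, so that library 3 stood apart from the other knockout libraries.

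Osgin1, an oxidative stress gene driven by the factor Nfe2l2, passed the test in 22 of 32 alternatives, the most of the 86 genes. It stood at 3.76, 5.67, 5.78, 1.87 and 7.201 CPM in wild type and 12.9, 14.9 and 13.03 CPM in the knockout. The 3 knockout libraries were close to each other and all above wild type, and Osgin1 rose by 1.49 ± 0.26 (adjusted p = 0.0316). Of 27 antioxidant genes and Nfe2l2 targets, which did not include Osgin1, 0 passed, 22 lay above 0 and the median was 0.30. Nfe2l2 itself was at 67.5, 71.6, 73.0, 62.5 and 69.5 CPM and 143, 76.9 and 98.1 CPM, without overlap (0.62 ± 0.14, adjusted p = 0.0518). Hmox1, the inducible haem oxygenase, was at 9.27, 8.47, 11.3, 7.61 and 10.99 CPM and 57.4, 13.6 and 22.3 CPM, also without overlap (1.71 ± 0.40, adjusted p = 0.0554). Gclm, a subunit of the enzyme that makes glutathione precursors, was at 12.9, 15.3, 18.5, 14.3 and 15.5 CPM and 35.4, 15.4 and 37.3 CPM, with library 2 inside the wild-type range (0.94 ± 0.22, adjusted p = 0.0518).

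Interferon-stimulated genes lay above wild type at 39 of 40 tested members, with a median of 0.81, but 0 of them passed. Here the order of the libraries was another one. Library medians were 0.69, 1.48 and 0.00, so library 2 was the highest and library 3 was level with wild type. Irf7, the factor that amplifies interferon production, was at 31.5, 28.7, 24.1, 5.87 and 20.2 CPM in wild type and 43.8, 114 and 18.9 CPM in the knockout. Libraries 1 and 2 lay above wild type and library 3 inside its range (1.42 ± 0.64, adjusted p = 0.230). Wild-type library 4 was the lowest of all 8 at this gene, and it was so at Ifit1 too, which encodes an RNA-binding interferon effector (9.43, 8.85, 8.59, 2.002 and 7.05 CPM and 17.9, 34.1 and 8.44 CPM). The RNA sensor gene Ddx58 was at 21.04, 19.9, 20.8, 14.2 and 18.4 CPM and 30.8, 41.6 and 25.8 CPM, without overlap (0.80 ± 0.20, adjusted p = 0.0609). Herc6, an interferon-induced ligase that attaches Isg15 to proteins in the mouse, was not in the list and passed. It stood at 5.01, 5.67, 4.41, 4.14 and 4.23 CPM and 7.70, 11.5 and 8.96 CPM, without overlap, and rose by 1.0003 ± 0.22 (adjusted p = 0.0468). H2-Q4, a gene of the nonclassical histocompatibility class, stood at 52.8, 43.0, 46.5, 39.3 and 63.7 CPM and 99.4, 147 and 81.8 CPM and rose by 1.16 ± 0.26 (adjusted p = 0.0473). It belongs to a family of near-identical genes among which reads may be split. The cytokine receptor gene Osmr and the receptor family gene Il17rd, an inhibitor of growth factor signalling, rose by 1.12 ± 0.25 and 0.72 ± 0.13 (adjusted p = 0.0473 and 0.0316).

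No leukocyte gene of the lists passed, and the knockout libraries lay on both sides of wild type. Of 28 macrophage and monocyte genes, 0 passed, 7 lay above 0 and the median was -0.27, with library medians of -0.80, 0.45 and -0.91. The macrophage markers Csf1r, Cd68, Adgre1 and C1qa summed to 71.4, 155.7 and 59.4 CPM in the knockout against 99.6 to 133 CPM in wild type, so libraries lay on both sides. Of 25 cytokine and chemokine genes 0 passed (median -0.08), and of 23 genes for nucleic acid sensing and the inflammasome 0 passed (median 0.06). Cgas, the sensor of cytosolic DNA, ranged from 0.836 to 2.08 CPM in wild type and from 1.66 to 2.31 CPM in the knockout (0.42 ± 0.32, adjusted p = 0.471). Among 10 neutrophil genes and 12 lymphocyte genes 0 passed, with medians of -0.55 and 0.02.

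No contractile gene passed. Of 28 sarcomere and calcium handling genes, 0 passed, 9 lay above 0 and the median was -0.14. Actc1, cardiac actin, was at 14509, 11766, 11771, 13717 and 11083 CPM in wild type and 4530.4, 11278 and 6921 CPM in the knockout, with libraries 1 and 3 below wild type and library 2 inside its range (-0.73 ± 0.25, adjusted p = 0.124). Of 18 fetal or load-induced cardiac genes, 0 passed and the median was 0.29. Myh7, the slow myosin heavy chain that is typical of the fetal ventricle, was at 603, 694, 587, 2576 and 3216 CPM and 14213, 803 and 13251 CPM. Libraries 1 and 3 were far above wild type and library 2 was inside its range (2.62 ± 1.082, adjusted p = 0.197). Nppb, the natriuretic peptide released under load, was at 208, 232, 276, 297 and 390.0 CPM and 155, 180.0 and 199.9 CPM, lower in all 3 libraries without overlap (-0.65 ± 0.40, adjusted p = 0.370). The remaining lists had no member that passed. They were 11 atrial genes (median 0.60), 12 platelet and erythroid genes (0.63), 17 adipocyte genes (0.39), 18 genes of other tissues (0.26), 17 genes of mesothelium, valve and nerve (0.14), 26 immediate early genes (0.17), 23 cell cycle genes (-0.21), 50 ribosomal protein genes (0.03) and 5 sex-linked genes (5.34). The genes of other tissues had library medians of 0.23, 1.80 and -0.12, so library 2 stood apart there. The sex-linked genes had library medians of 6.03, 0.23 and -0.45, so there the library with the Y-linked reads, library 1, stood apart. Against the median of the platelet and erythroid list, the platelet markers Pf4, Ppbp and Gp9 were not higher in the knockout. They summed to 4.62, 13.7 and 7.01 CPM there against 11.1 to 16.1 CPM in wild type, below it in libraries 1 and 3. Mitochondrially encoded genes were not analysed here.

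**Figure D3:**
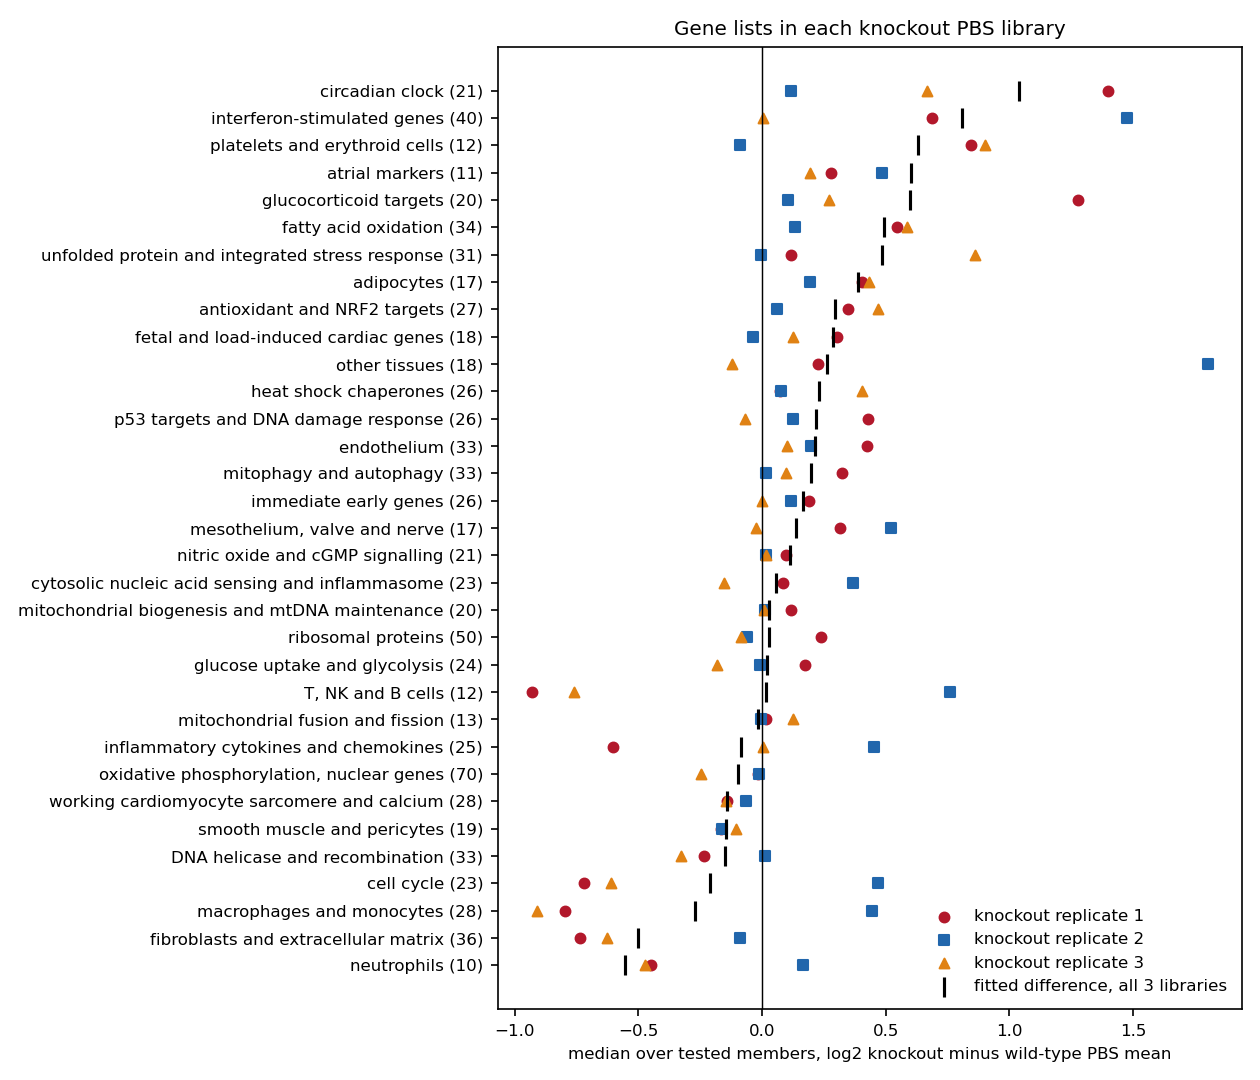
Median over the tested members of each gene list (x axis, log2 difference from the wild-type PBS mean) in each knockout PBS library, with the median of the fitted differences as a vertical tick and the number of tested members in brackets. The libraries differ in order between lists: library 1 is highest for the clock genes (1.40), library 2 for interferon-stimulated genes (1.48) and library 3 for the unfolded protein and integrated stress response (0.86).

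The 10 lower genes besides Mcm8 shared no list. Magohb, a component of the exon junction complex, stood at 3.92, 4.05, 3.88, 4.14 and 4.16 CPM in wild type and 1.54, 1.65 and 2.03 CPM in the knockout. The libraries of each group were tightly bunched and Magohb fell by 1.21 ± 0.24 on the log2 scale (adjusted p = 0.0333). Bex1, a small X-linked adaptor, stood at 2.76, 3.05, 2.74, 4.14 and 5.196 CPM and 1.47, 1.17 and 0.979 CPM and fell by 1.56 ± 0.31 (adjusted p = 0.0342). Rnf219, a RING finger protein tied to messenger RNA deadenylation, stood at 4.84, 5.23, 6.69, 7.07 and 6.09 CPM and 1.61, 3.63 and 2.26 CPM and fell by 1.25 ± 0.22 (adjusted p = 0.0316). Neither gene overlapped between groups. Spata7 and Ccdc14, proteins of cilia and centrosomes, fell by 1.07 ± 0.22 and 0.91 ± 0.20 (adjusted p = 0.0352 and 0.0473). Macroh2a2, a histone variant of silent chromatin, stood at 11.02, 9.03, 10.3, 9.21 and 7.35 CPM and 4.76, 6.45 and 4.29 CPM and fell by 0.86 ± 0.19 (adjusted p = 0.0469). Hacd2, which elongates very long fatty acids, fell by 0.66 ± 0.14 and was nearly constant over wild type, at 8.97 to 9.50 CPM, against 5.04 to 6.99 CPM. The other 3 were Wdr6, a partner of a transfer RNA methylase, the hydrolase gene Abhd14a and the zinc finger gene Zfp267, which fell by 0.64 ± 0.14, 0.67 ± 0.15 and 0.88 ± 0.20. Of Hacd2 and these 3, each had an adjusted p from 0.0468 to 0.0473.

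Some large differences rested on few reads or on 1 library. Among the genes that passed, BB014433 had the largest difference, 4.99 ± 1.02, which was 0.76 without library 1. It stood at 28.3, 0.274 and 0.753 CPM in the knockout against 0.148 to 0.400 CPM in wild type. The histone gene H3c4, one of many near-identical copies, was at 9.66, 1.23 and 0.527 CPM against 0.0835 to 0.734 CPM and differed by 1.09 without library 1. Slc12a3, a salt cotransporter of kidney, was at 7.42, 1.23 and 0.603 CPM against 0.125 to 0.835 CPM and differed by 1.24 without it. For these 3 genes the size came mainly from the library that also held the Y-linked reads. Pbld1, by contrast, stood at 1.09, 1.81, 1.52, 1.73 and 2.90 CPM in wild type and 23.7, 3.84 and 13.9 CPM in the knockout, above wild type in all 3 libraries (2.92 ± 0.54, adjusted p = 0.0316). The T-box factor gene Tbx6 was at 2.14 to 3.59 CPM in wild type and 14.6, 4.25 and 7.68 CPM in the knockout (1.74 ± 0.31), and the imprinted gene Peg10 at 1.13 to 1.78 CPM and 9.59, 1.92 and 5.12 CPM (2.05 ± 0.46), both without overlap. Also higher were the transcription factor gene Yy1 (0.54 ± 0.12), the remodeller gene Chd1 (0.65 ± 0.15) and the termination factor gene Pcf11 (0.75 ± 0.17, 0.36 without library 1). Their adjusted p ran from 0.0468 to 0.0473.

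The LCWE libraries belong to neither PBS group, but they entered the test through the shared spread and so affected which genes passed. They were used to ask whether the same genes differed between genotypes under LCWE. The Y-linked and Xist levels were uneven there too. The Y-linked sum was 131 CPM in wild-type library 1 and 132.6 to 146 CPM in knockout libraries 1, 3 and 5, against 0.473 to 2.29 CPM in the other 7. Knockout library 2 had little of either, with 1.62 CPM of the Y-linked genes and 0.649 CPM of Xist. The part of this in the LCWE values was not tested. Of the 75 higher genes, 60 lay above 0 under LCWE, with a median of 0.12. Of the 11 lower genes, 8 lay below 0, with a median of -0.07. Over all tested genes, 63.8% of those above 0 under PBS were above 0 under LCWE, and 62.5% of those below 0 were below it, which is the background for the 60 of 75 and 8 of 11. Mcm8 was the only gene called under LCWE (0.00699% of tested genes), at -3.36 ± 0.34 (adjusted p = 5.12e-05). At an unadjusted p under 0.05, which 5.55% of tested genes reached there, Herc6 and Col28a1 were higher too, by 0.86 ± 0.18 and 0.72 ± 0.34. Cyp4b1 and Macroh2a2 lay the other way under LCWE, at -0.36 ± 0.14 and 0.32 ± 0.15. Per2 was at 0.86 ± 0.54, Hspa1b at 0.36 ± 0.51, Osgin1 at 0.05 ± 0.23, Pde2a at 0.02 ± 0.12 and G0s2 at -0.07 ± 0.31 under LCWE. Among the lists, interferon-stimulated genes had a median of 0.95 under LCWE with 40 of 40 above 0, against 0.81 under PBS. Clock genes had 0.16, and fatty acid oxidation genes -0.14 with 7 of 34 above 0. Oxidative phosphorylation genes had -0.30 under LCWE with 0 of 70 above 0, against -0.10 under PBS. Some medians had the other sign under LCWE. Matrix genes had 0.14 (28 of 36 above 0) against -0.50 under PBS, macrophage genes 0.30 (25 of 28) against -0.27, smooth muscle and pericyte genes 0.16 (13 of 19) against -0.15, and platelet and erythroid genes -0.36 (2 of 12) against 0.63. These differences between treatments were not tested.

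Whether the genotype difference itself changed with treatment was tested by the interaction. It called 0 genes by edgeR, with a smallest adjusted p of 0.121, for Cyp4b1, and 1145 genes at an unadjusted p under 0.05 (8.01%). DESeq2 called 5 and limma with voom and library weights 21, and without knockout PBS library 2 edgeR called 481. The interaction had an unadjusted p under 0.05 at 73 of the 75 higher and 11 of the 11 lower genes, but these were chosen for the PBS difference that enters it, so the count is a description.

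**Figure D4:**
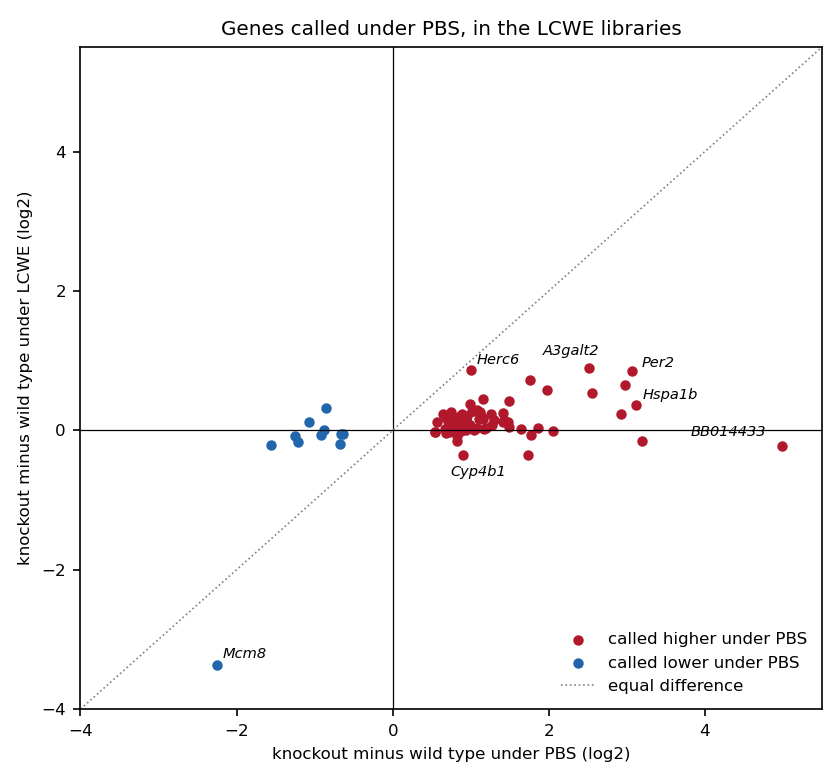
Log2 difference of knockout minus wild type under LCWE (y axis) against that under PBS (x axis) for the 86 genes that passed under PBS, with equal differences as a dotted line. Mcm8 lies far from 0 in both, and most other genes lie near 0 under LCWE, with medians of 0.12 and -0.07 for the higher and lower genes.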

How the data were processed

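RNA of 19 mouse heart samples was reverse transcribed and amplified with a whole-transcriptome kit, per the labels' protocols, and sequenced. The deposited values are raw counts of reads per gene symbol, 1 table for all samples, taken as the authors deposited them. The submitters' processing notes name STAR 2.7.8a, limma and GRCm38 without giving their roles. The read counter, annotation and strand setting were not given in the sources used here, and antisense or overlapping genes cannot be separated. Samples were grouped by genotype and treatment in the column labels.

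Genes were kept by edgeR's filterByExpr (minimum count 10, total 15), scaled by TMM and tested with edgeR 4.0.16 (R 4.3.3) by its robust quasi-likelihood test with 4 groups in 1 model. Every adjusted p of the main fit is Benjamini-Hochberg over all 14301 tested genes with a threshold of 0.05. The alternatives filtered the genes anew, so their adjusted p were over the genes each one kept, with the same threshold. Log2 levels used a prior count of 2. Standard errors of edgeR differences were derived from the test, as the size of the difference over the square root of its F statistic. PBS totals ran from 11853233 to 15727823 counts, so low genes carry larger counting error. No 2 PBS libraries agreed within sampling noise (lowest mean chi-square per gene 7.85). Alternatives were other scalings, filters and covariates, DESeq2 1.42.0, limma 3.58.1 with voom, PBS libraries alone and each library left out. The code was tested on simulated data.

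The comparison and gene lists were chosen with earlier results of these data known. Named genes were Mcm8, its neighbours and partner, the called genes of at least 5 CPM with the smallest p (up to 15 per direction), the 3 largest changes per direction, up to 4 called or 3 leading members per list, and a fixed set of 14 genes. All other genes named were chosen after their values were seen. Sequences are from RefSeq on GRCm38.p6, and gene positions from GENCODE M21. Some items are not reported here.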

Additional observations from a re-analysis of the deposited data

Results flagged for a closer look

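Among 246 named genes, 21 had 1 wild-type PBS library far from the other 4, by the gap to its nearest neighbour relative to the whole range. Chance gives such a gap in about 1 of 20 groups of normally distributed values. Whether the values here are so distributed was not tested. Values are in CPM. Wild-type library 1 was high for Cyc1 (1308 against 1055 to 1066), Ier3 (19.9 against 13.7 to 14.6) and Dbh (13.8 against 3.86 to 6.66), and low for Fhl1 (121.8 against 129.8 to 131.7). Library 2 was high for Itga2b (4.98 against 1.601 to 2.15), Acacb (842 against 586 to 635), Epcam (2.99 against 0 to 0.0760) and Uty (0.311 against 0.0742 to 0.133). Library 4 was high for Trmt6 (10.2 against 7.79 to 8.29), Tsc22d3 (146 against 95.3 to 109.7), Mmp9 (2.54 against 0.228 to 0.668) and Hadha (2009 against 1522 to 1602), and low for Xpc (23.2 against 25.6 to 26.5), Slc6a9 (3.14 against 3.84 to 3.93) and Isg15 (1.94 against 6.85 to 8.36). Library 5 was high for Als2cl (89.97 against 69.3 to 75.1), Inf2 (74.6 against 49.7 to 56.9), Fgd5 (96.1 against 77.5 to 79.9), Spp1 (5.05 against 0 to 0.334) and Myo7b (2.75 against 1.90 to 2.09), and low for Prox1 (34.6 against 66.0 to 76.8). Of these genes, Als2cl, Inf2, Fgd5, Myo7b and Slc6a9 passed the test under PBS.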

How the results depend on the processing

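The 86 genes called under PBS became 21 (16 higher, 5 lower) with library totals alone, which moved the median of all genes by -0.066. The count was 699 (537 higher, 162 lower) with DESeq2, 1 with limma-voom and 749 (481 higher, 268 lower) with library weights added. It was 1 with PBS libraries only. With the range of the sample number as a covariate it was 524 (387 higher), with the number of genes detected 56 (50 higher, 6 lower) and with the Y-linked level 0. Of the 86, 84 were also called by DESeq2, 82 with library weights and 86 with the number range. Fewer were shared with the number of genes detected (50), library totals alone (21) and limma-voom (1). The fit of PBS libraries only shared 0, so its 1 gene was not among the 86. In alternatives chosen after seeing the data, the count was 0 with libraries without Y-linked reads only and 1 with PBS libraries only without knockout library 1. This last fit also shared 0 of the 86. Leaving out 1 library gave 0 to 2606 calls, the highest without knockout PBS library 2 and 0 without knockout PBS library 1 or 3, wild-type PBS library 1, 2 or 3 or wild-type LCWE library 5. Other scaling by RLE (93), no filter (62) and a strict filter (79) stayed within 1.5 times, and Mcm8 fell below the strict filter.

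Mcm8 kept its direction throughout. Its difference was no longer past the threshold with limma-voom (-2.23), PBS libraries only (-2.27), the Y-linked level (-2.39), libraries without Y-linked reads only (-2.41) and PBS libraries only without knockout library 1 (-2.41). Leaving out 1 library gave -2.41 to -2.13. The interaction called 5 genes with DESeq2, 21 with library weights and 0 to 481 with 1 library left out, the highest without knockout PBS library 2. The cause of these changes was not tested. The smaller fits also hold fewer samples, and the part of this was not tested either. Low counts limit Mcm8 and the other genes of a few CPM. No paired analysis was possible because the replicate numbers follow accession order and the sample numbers in the labels are not shared between groups.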
